A study of Saccharomyces cerevisiae with 6 samples.

Results

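The messenger RNAs of nuclear genes that came along with mitochondria isolated from yeast grown on ethanol are described here. They were taken from 3 of the 6 libraries of the study, replicates 1, 2 and 3 of the ethanol group. Of 5605 features classed as cytosolic mRNA, all but ENO2 were kept, each library was rescaled to its own total over the remaining 5604 features, and the 2047 features above 0 in all 3 libraries (36.5%) were ranked by their mean. The yeast, a haploid laboratory strain of Saccharomyces cerevisiae named CEN.PK113-7D, was grown in shake flasks of synthetic medium and harvested while growing exponentially. The ethanol cultures received ethanol together with glycerol, and the other 3 libraries, from cultures on glucose, are shown for orientation only. The RNA was given poly(A) tails with an enzyme and read as RNA molecules on a Nanopore instrument, so each read stands for 1 molecule or a piece of one, and levels below are nuclear CPM (nCPM), reads scaled so that the nuclear mRNA of a library without ENO2 sums to 1000000, with no correction for length.

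On ethanol, yeast makes acetyl-CoA from ethanol through acetaldehyde and acetate, burns it in the mitochondrial tricarboxylic acid (TCA) cycle and respiratory chain, and builds sugars from it through the glyoxylate cycle and gluconeogenesis. Glycerol enters as glycerol 3-phosphate, which a mitochondrial dehydrogenase oxidises. Mitochondria prepared by differential centrifugation carry cytosolic ribosomes and mRNA on their outer face, because many mRNAs of mitochondrial proteins are translated there, together with RNA from the cytosol and other membranes. Whole-cell RNA was not measured, so the level of an mRNA in the cell and the amount that came with the organelle cannot be told apart.

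The direct RNA kit is known to come with a control RNA made from yeast ENO2, the enolase gene that the choice of features left out. Whether it was added is not stated in the sources used here, and ENO2 took 4.94%, 49.9% and 21.9% of all assigned reads in ethanol replicates 1, 2 and 3. The other nuclear mRNAs took 0.977%, 7.14% and 9.39%, and RNA of the mitochondrial genome 12.6%, 5.69% and 3.15%. This left 8284, 19087 and 63081 nuclear mRNA reads, so that 1 read was worth 121, 52.4 and 15.9 nCPM, and the floor of 3 reads used here for features without a read stood at 362, 157 and 47.6 nCPM. Intervals and floors given here cover counting error only. Replicate 1 had by far the fewest nuclear reads. A read was found for 2532, 3652 and 4810 features in replicates 1, 2 and 3, and without replicate 1 the count of ranked features would be 3399. The ranked features held 92.6%, 84.3% and 79.0% of the nuclear mRNA reads of the replicates.

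By the mean of the 3 libraries, the highest single mRNAs were mostly those of the cell wall, of glycolysis, of protein synthesis and of stress proteins. The first place belonged to CCW12, a cell wall mannoprotein (chromosome 12, 348711 to 349112, minus strand), with 19336, 10033 and 10535 nCPM in replicates 1, 2 and 3, a mean of 13301 ± 5232 (SD, n = 3). Replicate 1 was the high library and replicates 2 and 3 were close. Below it stood ENO1, TDH3 and a feature named TEF1, which encode an enolase, a glyceraldehyde-3-phosphate dehydrogenase and the translation elongation factor eEF1A. The stress protein HSP12 had rank 5 by the mean, but ranks 2, 4 and 46 within replicates 1, 2 and 3. As a list, stress proteins took 2.31% of replicate 3, below the TCA cycle with 3.18%. Nuclear genes for mitochondrial proteins, taken as 7 lists together, had a mean share of 8.38%, and 11.4% in replicate 3. An unnamed feature on chromosome 14 (244322 to 244921) had 5070.3, 7439.5 and 2362 nCPM, and another on chromosome 4 (1468781 to 1468981) had 3139, 1886 and 5215. The 20 highest features held 16.3%, 15.1% and 10.8% of the reads when taken in each library separately, and 287, 326 and 361 features were enough to make up 50 percent. Among the 20 features with the highest mean, replicate 3 lay below both other replicates for 15 and above both for 3. Over all ranked features it lay below both for 954 and above both for 521, and the median log2 of replicate 3 over the mean of the others was -0.42. A ranked feature has at least 1 read in replicate 1, which lifts its level there, so these counts are only a reference for the list counts below.

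**Figure D1:**
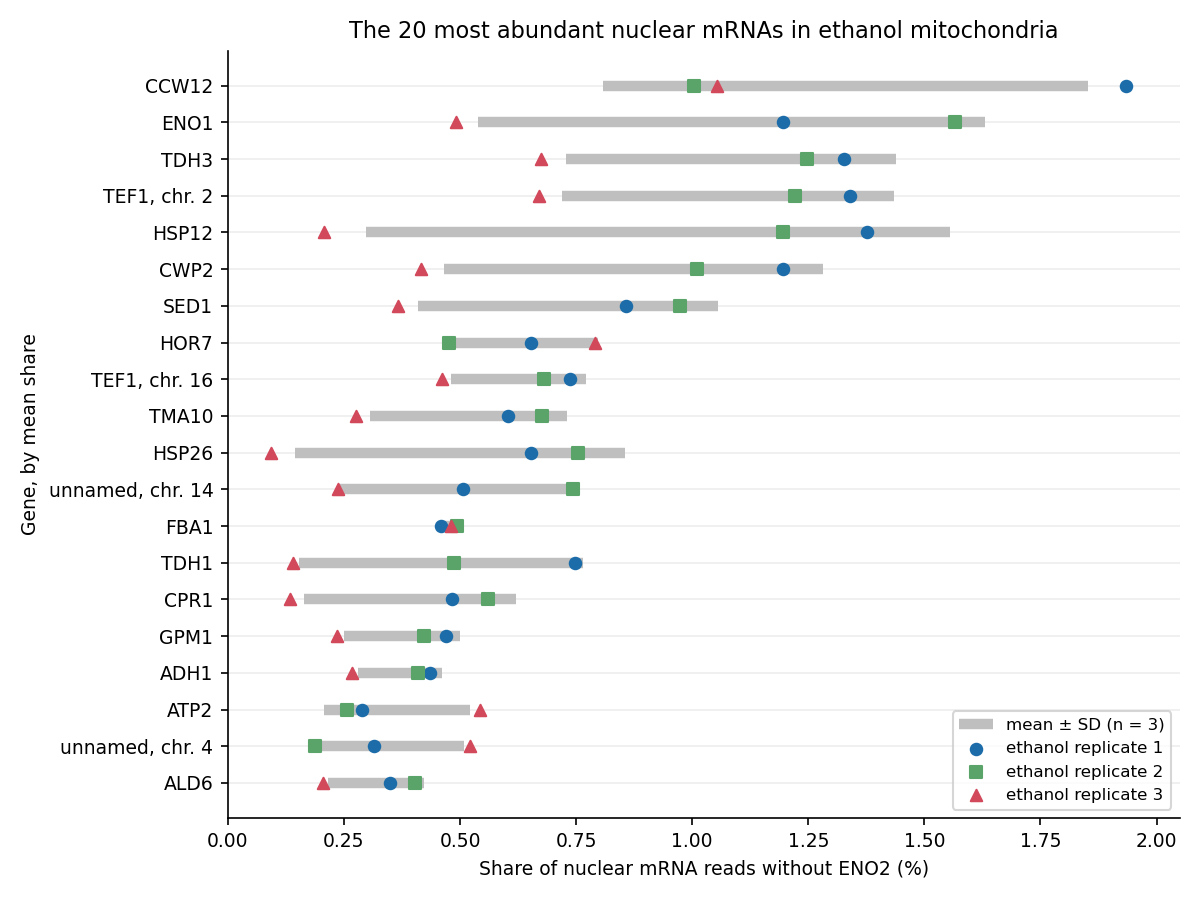
Share of nuclear mRNA reads without ENO2 (percent, linear axis) for the 20 features with the highest mean, as points for ethanol replicates 1, 2 and 3 and a grey bar for mean ± SD (n = 3). Replicate 3 is the lowest point for 15 of the 20 features, while HOR7, ATP2 and an unnamed feature on chromosome 4 are highest there.

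Secreted cell wall proteins took 5.96%, 4.76% and 3.22% of the nuclear mRNA in replicates 1, 2 and 3 (mean 4.65% ± 1.37, SD, n = 3). After CCW12 came CWP2, another mannoprotein (chromosome 11, 265577 to 265855, plus strand), with 11952, 10111 and 4153 nCPM. SED1, the main structural glycoprotein of the wall in resting cells (chromosome 4, 587021 to 588037, plus strand), had 8571, 9745 and 3662. In both, replicate 3 was the low library and replicates 1 and 2 were close. Of the 35 features on the list, 25 were above 0 in all libraries. Replicate 3 was below both others in 12 of these (48%) and above both in 6 (24%). Over all ranked features these portions were 46.6% and 25.5%.

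Stress proteins, a list of 21 features, took 4.93%, 4.61% and 2.31%. HSP12, a small protein that stabilises membranes (chromosome 6, 108035 to 108364, plus strand), had 13762, 11945 and 2077 nCPM from 114, 228 and 131 reads. HSP26, a small heat-shock chaperone (chromosome 2, 371664 to 372308, plus strand), had 6519, 7544 and 935. For both genes replicates 1 and 2 were alike and replicate 3 was several times lower. TMA10, whose product associates with ribosomes, had 6036, 6758 and 2768, with the same order. HOR7, named for its response to high osmolarity (chromosome 13, 751690 to 751869, plus strand), went the other way, with 6519, 4768 and 7910.4 and replicate 3 highest. The list is thus not uniform: replicate 3 was below both others in 15 of its 20 ranked members and above both in 3.

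Glycolytic genes took 6.18%, 6.11% and 3.30%. ENO1 (chromosome 7, 1027183 to 1028496, plus strand) had 11952, 15665 and 4912 nCPM, but its level followed that of its close paralog ENO2. Relative to ENO2, ENO1 was 0.236%, 0.224% and 0.211% in ethanol replicates 1, 2 and 3, although ENO2 itself differed between 4.94% and 49.9% of all reads, against 0.785%, 0.821% and 1.11% in the glucose libraries. Reads of ENO2 placed on ENO1 and reads of ENO1 itself cannot be told apart in these tables, so the second place of ENO1 is uncertain. TDH3 (chromosome 7, 909094 to 910092, minus strand) had 13279, 12469 and 6753, and its isozyme TDH1 7485, 4872 and 1395, and replicate 3 was the lowest for each. FBA1, the aldolase (chromosome 11, 332432 to 333511, minus strand), was nearly level, with 4587, 4925 and 4795, a mean of 4769 ± 170.2 (SD, n = 3). Its value in replicate 1 rests on 38 reads, with a 95% interval of 3248 to 6291, which is wider than that SD. GPM1, phosphoglycerate mutase, had 4708, 4217 and 2346.

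Ribosomal proteins formed the largest single list. The 128 features of cytosolic ribosomal proteins took 8.14%, 7.85% and 8.85%, a mean of 8.28% ± 0.515 (SD, n = 3). Their leader RPL10, a protein of the large subunit, had 2052, 2096 and 3281 nCPM. Translation factors took 3.67%, 2.91% and 2.60%, led by eEF1A, which 2 features named TEF1 encode. The copy on chromosome 2 (465437 to 466813, plus strand) had 13400.1, 12207 and 6698 and the copy on chromosome 16 (708713 to 710088, plus strand) had 7364, 6811 and 4621. Their sequences are nearly the same, so their separate levels are uncertain. Of the 24 ranked translation factors, replicate 3 was above both others in 10 (41.7%) and below both in 4 (16.7%). Over all ranked features it was above both in 25.5% and below both in 46.6%. The lower total of this list in replicate 3 thus does not describe its members as a whole. Ribosome biogenesis factors, which build new ribosomes, took 0.652%, 0.126% and 0.657%, and without the single feature NOG2 0.217%, 0.110% and 0.291%.

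NOG2 (chromosome 14, 710783 to 712774, minus strand), a GTPase of large-subunit assembly, had 4346, 157 and 3662 nCPM from 36, 3 and 231 reads. It is 1 of 8 features whose gene, in the S288C reference annotation, holds a small nucleolar RNA (snoRNA), here SNR191. As background, mature snoRNAs lack a poly(A) tail of their own, and the RNA here was tailed with an enzyme. Another is EFB1 (SNR18), a translation elongation factor subunit chosen after its values were seen, which had 4587, 733 and 951, with replicate 1 far above the others. One more, RPS22B (SNR44), a small-subunit ribosomal protein (chromosome 12, 815320 to 816852, plus strand), had 604, 209.6 and 3868, with replicate 3 far above the others. The tables do not separate reads of the snoRNA from reads of the host mRNA. The part of the snoRNAs in these levels was not tested.

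Nuclear genes for mitochondrial proteins, taken as 7 lists of 195 features together, took 6.99%, 6.73% and 11.4% of the nuclear mRNA in replicates 1, 2 and 3. Replicate 3 thus held 1.67 times the mean of the other replicates. The TCA cycle took 1.63%, 1.57% and 3.18%. Its leader CIT1, mitochondrial citrate synthase (chromosome 14, 619321 to 620760, minus strand), had 1569, 1624 and 5358 nCPM. The next members, here and in the lists below chosen after their values were seen, were aconitase ACO1 with 1328, 524 and 4470.4 and fumarase FUM1 with 1449, 1677 and 2330.3. All of them were highest in replicate 3, FUM1 by the least. Of 21 ranked TCA genes, replicate 3 was above both others in 16 and below both in 3.

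The respiratory chain took 1.73%, 1.43% and 2.44%. COX13, a small subunit of cytochrome c oxidase (chromosome 7, 163298 to 163687, plus strand), led with 1569, 1729 and 1411 nCPM, and COX8 and QCR9, of cytochrome c oxidase and the bc1 complex, had 1207, 1205 and 1641 and 1086, 1205 and 1443. Replicate 3 was lowest for COX13 and highest for COX8 and QCR9, but these directions lay within counting error. In replicate 1 the values of COX13, COX8 and QCR9 rested on 13, 10 and 9 reads. The ratios of replicate 3 to replicate 2 had 95% intervals of 0.542 to 1.26, 0.856 to 2.23 and 0.751 to 1.98. The intervals against replicate 1 were wider and also included equal levels. The 17 features of ATP synthase took 1.42%, 1.41% and 2.14%, and all of them were above 0 in all libraries. ATP2, the catalytic beta subunit of the F1 part (chromosome 10, 642573 to 644108, plus strand), had 2897, 2567 and 5437, and ATP1, the alpha subunit, 1207, 1100.2 and 2536. For ATP2 and ATP1 replicate 3 was the high library and replicates 1 and 2 were close. The subunits ATP17 and ATP19 had similar values in each library, with 966, 891 and 1030.4 and 724, 681 and 761. The 966 nCPM of replicate 1 stand for 8 reads, with a 95% interval of 417 to 1902, so a moderate change could be missed. Of the 17 ATP synthase genes, replicate 3 was above both others in 13 and below both in 2.

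Membrane carriers and outer membrane proteins took 0.905%, 0.912% and 1.12%. OM14, an outer membrane protein that docks nascent chain complexes (chromosome 2, 672953 to 673682, minus strand), had 3863, 3143 and 1744 nCPM, with replicate 3 lowest. POR1, the channel of the outer membrane, had similar values of 2173, 2148 and 2077, where 1 read was worth 121 nCPM in replicate 1. PET9, the main ADP/ATP carrier, had 241, 1100.2 and 3479.6 and was highest in replicate 3. Import components took 0.364%, 0.288% and 0.583%, led by the intermembrane space chaperone TIM10 with 241, 314 and 666. Matrix chaperones and prohibitins took 0.350%, 0.424% and 0.728%, led by the chaperonin HSP60 with 845, 1415 and 1649.9. Mitochondrial ribosomal proteins took 0.592%, 0.689% and 1.24% over 72 features, of which only 25 were ranked. The first of that list was MRP8 with 966, 1205 and 428, a protein that bears the name but is no longer regarded as part of the ribosome, and the next was MRPS12 with 241, 314 and 563.

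**Figure D2:**
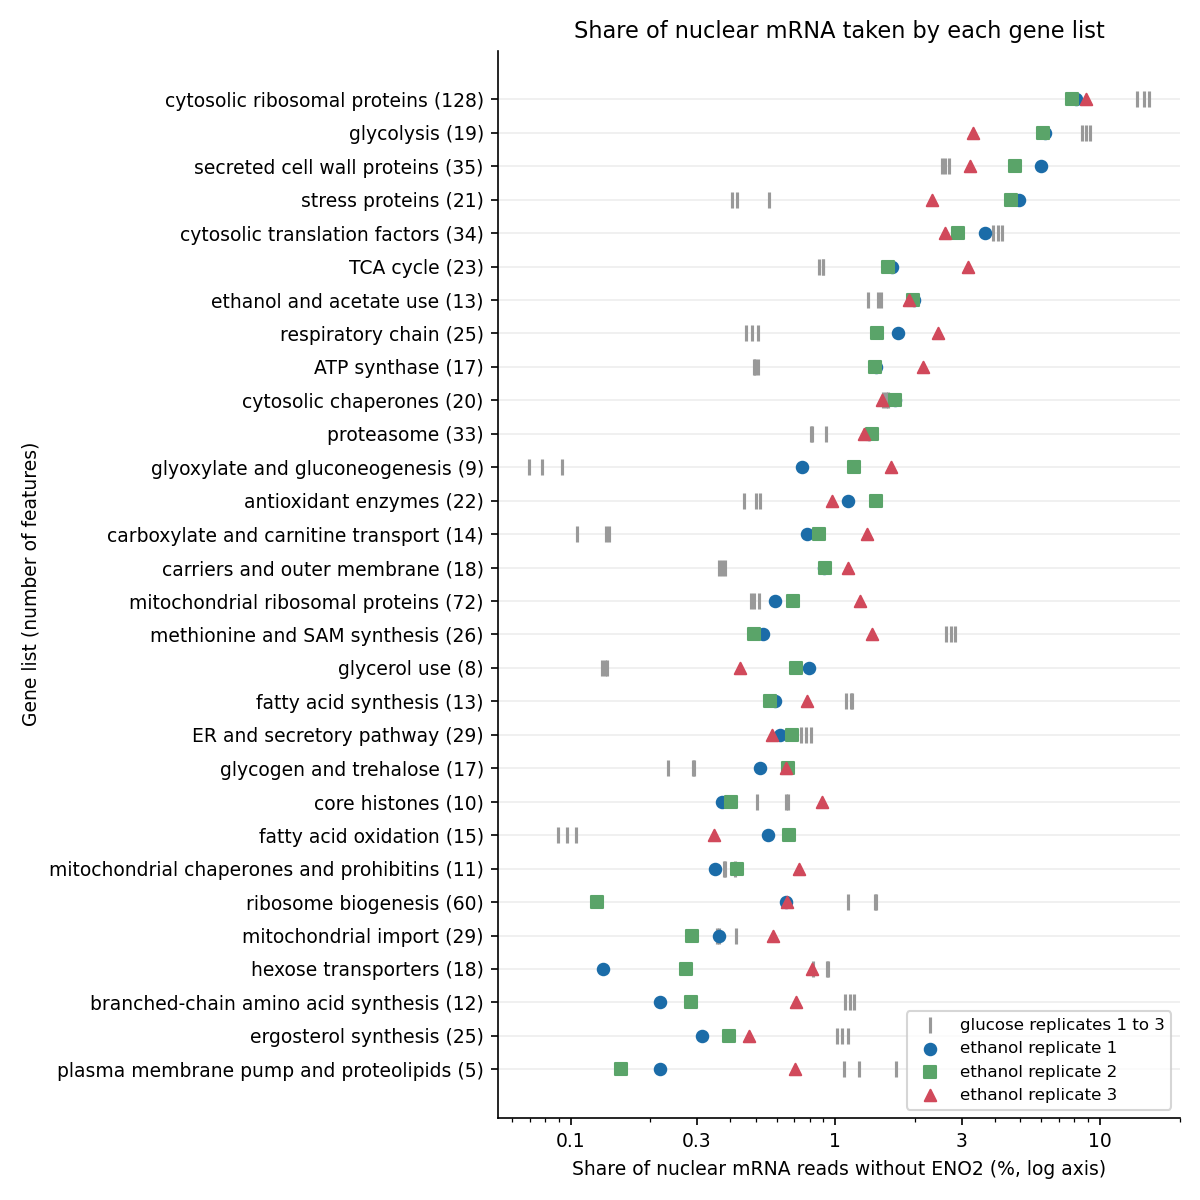
Share of nuclear mRNA reads without ENO2 (percent, log axis) for 30 gene lists, ordered by their ethanol mean, with the number of features in brackets. Coloured points are ethanol replicates 1, 2 and 3, and grey bars the 3 glucose libraries. Ribosomal proteins are highest in every ethanol library, and the TCA cycle, respiratory chain and ATP synthase are higher in replicate 3, which had 3.18%, 2.44% and 2.14%.

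The ethanol and acetate list, of whose 13 features 10 were ranked, took 1.98%, 1.96% and 1.89%, a mean of 1.94% ± 0.0470 (SD, n = 3), and its first member was ADH1, the alcohol dehydrogenase of fermentation (chromosome 15, 153538 to 154584, minus strand), with 4346, 4086 and 2663 nCPM. ADH2, the isozyme that oxidises ethanol, had 1569, 2724 and 2457. The aldehyde dehydrogenases ALD6, of the cytosol (chromosome 16, 440040 to 442235, plus strand), and ALD4, of the mitochondrion, had 3501, 4034 and 2045 and 3622, 3065 and 2853. ACS1, which makes acetyl-CoA from acetate, had 2173, 1153 and 1299.9. The glyoxylate and gluconeogenesis list took 0.748%, 1.18% and 1.62%, with all 9 features ranked. It was led by CIT2, the peroxisomal citrate synthase (chromosome 3, 126095 to 127477, minus strand), with 1328, 3039 and 3440. ICL1, isocitrate lyase, and MLS1, malate synthase, had 1086, 1624 and 5041 and 604, 891 and 2402, both highest in replicate 3, whereas PCK1, which starts gluconeogenesis, had 1449, 1205 and 1126.

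The carboxylate and carnitine transport list took 0.779%, 0.870% and 1.32%. JEN1, the permease for lactate and pyruvate (chromosome 11, 28754 to 30604, plus strand), was nearly level, with 2656, 2619.5 and 2695 nCPM from 22, 50 and 170 reads, a mean of 2657 ± 37.7 (SD, n = 3). The 95% interval of its value in replicate 1 was 1665 to 4018. The acetate permease ADY2 had 845, 1100.2 and 1458, and the carnitine acetyltransferase YAT1 483, 838 and 1538. Glycerol genes took 0.797%, 0.707% and 0.436%. GUT2, the mitochondrial glycerol 3-phosphate dehydrogenase (chromosome 9, 46060 to 48009, minus strand), had 2656, 2672 and 1506, the glycerol kinase GUT1 1932, 1834 and 1046 and the glycerol symporter STL1 845, 786 and 698. Replicate 3 was the lowest library in all 6 ranked members of this list. Fatty acid oxidation took 0.555%, 0.665% and 0.349%, led by the peroxisomal acyl-CoA oxidase POX1 with 845, 1153 and 428.

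Cytosolic chaperones took 1.68%, 1.68% and 1.504%, led by CPR1, a cyclophilin (chromosome 4, 750013 to 750501, minus strand), with 4829, 5606 and 1332 nCPM. The proteasome took 1.33%, 1.37% and 1.28%, with the lid subunit RPN3 at 1086, 602 and 523. Antioxidant enzymes took 1.12%, 1.42% and 0.969%, with the copper and zinc superoxide dismutase SOD1 at 2777, 3327 and 2029. Glycogen and trehalose genes took 0.519%, 0.660% and 0.652%, with TPS1, trehalose 6-phosphate synthase, at 845, 1205 and 698. The fatty acid synthesis list took 0.592%, 0.566% and 0.780%, with the synthase subunit FAS2 at 1690.1, 1729 and 1411. ER and secretory genes, which mark another membrane that could sediment with mitochondria, took 0.616%, 0.686% and 0.576%, with the protein disulfide isomerase PDI1 at 1569, 2253 and 983. Ergosterol synthesis took 0.314%, 0.396% and 0.473%, with lanosterol synthase ERG7 at 483, 576 and 238. The ratio of replicate 3 to the mean of replicates 1 and 2 lay between 0.764 (antioxidant enzymes) and 1.35 (fatty acid synthesis) for these lists. Features in no list held 51.0%, 53.1% and 51.3%.

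Methionine synthesis, branched-chain amino acid synthesis, core histones, hexose transporters and the plasma membrane pump were the lists with the largest ratio of replicate 3 to the mean of replicates 1 and 2. Hexose transporters took 0.133%, 0.272% and 0.816%, a ratio of 4.03, with 4 of 18 features ranked. In replicate 3 most of this share was HXT6 and HXT7, with 5374 and 1522 nCPM. The plasma membrane list took 0.217%, 0.155% and 0.706%, a ratio of 3.80. Most of its share in replicate 3 was PMA1, with 5223 nCPM. Both ratios thus rest mainly on these genes and do not describe the lists as a whole. Branched-chain amino acid synthesis took 0.217%, 0.286% and 0.713%, led by LEU4, which starts leucine synthesis, with 241, 681 and 2156 nCPM. The methionine list took 0.531%, 0.492% and 1.38%. Core histones took 0.374%, 0.403% and 0.888%, led by the histone H3 feature HHT1 on chromosome 14 with 1932, 1309.8 and 2505. At the other end, stress proteins had a ratio of 0.484, glycolysis of 0.538, fatty acid oxidation of 0.571, glycerol use of 0.580 and cell wall proteins of 0.601. The ratio of cell wall proteins does not describe that list as a whole. Replicate 3 was below both others in 48% of its ranked members, against 46.6% of all ranked features. These ratios describe 1 library against 2 of the same group, and no test was made.

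**Figure D3:**
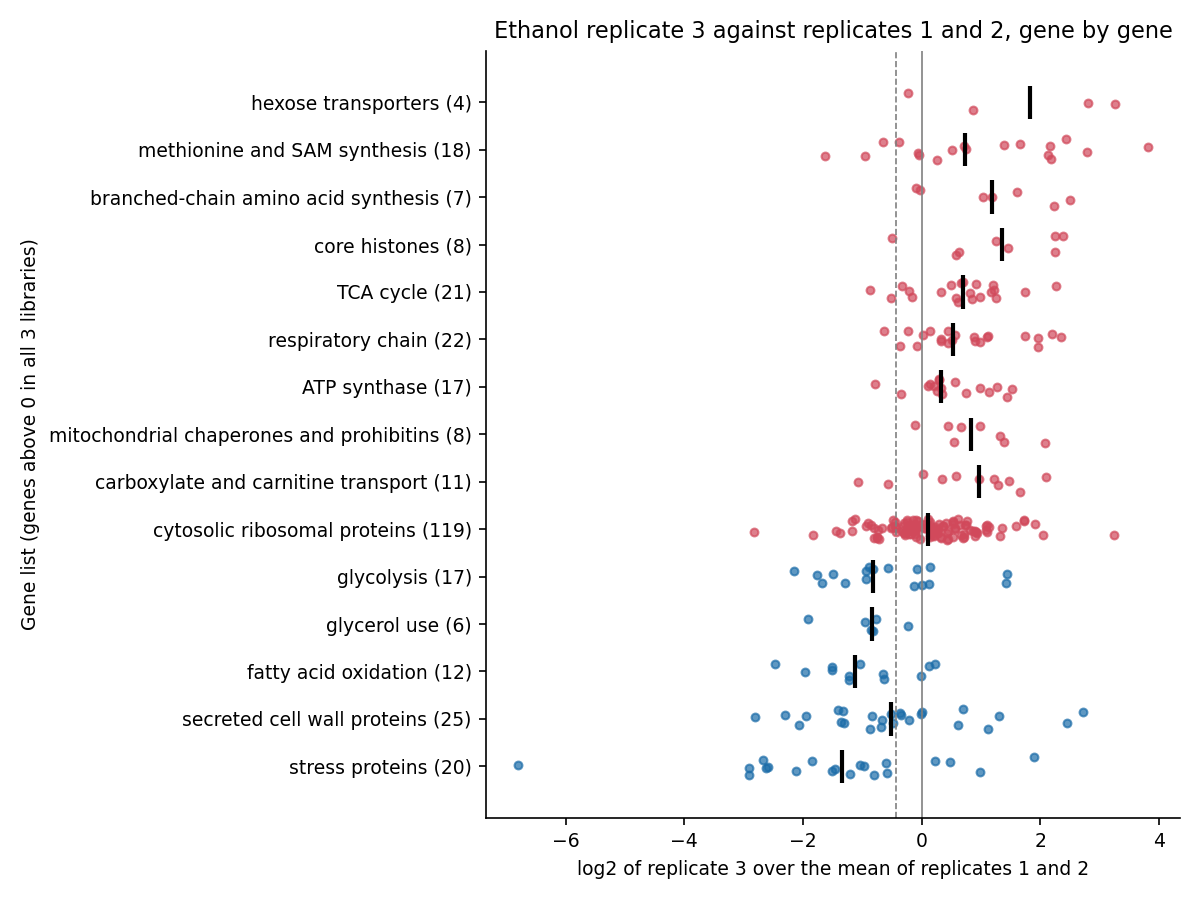
log2 of ethanol replicate 3 over the mean of replicates 1 and 2, 1 point for each gene above 0 in all 3 libraries, for 15 gene lists with the number of such genes in brackets and the list median as a black bar. The solid line is 0 and the dashed line is the median of all 2047 genes, -0.42. The medians reach 1.84 for hexose transporters and -1.34 for stress proteins.

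Single genes that set replicate 3 apart were taken as those at least 4-fold above or below both other replicates, with exact 95% Clopper-Pearson intervals that did not overlap, where values under 3 reads were raised to that floor. Of 5124 features with a read in an ethanol library, 11 were higher in replicate 3 (0.215%) and 23 were lower (0.449%). The balance turned with the scaling: 20 were higher and 12 lower with median ratio scaling, and 61 higher and 5 lower with ENO2 in the total. These shares are the background for the list counts. The higher genes included 2 hexose transporters and 2 methionine genes, and the lower ones 5 stress proteins (HSP12, HSP26, SIP18, SPG1 and GRE1) and 2 cytosolic chaperones (SSA3 and AHA1). Both chaperones lost the call under either other scaling, and HSP12, HSP26 and SPG1 lost it with ENO2 in the total. With a single read worth 121, 52.4 and 15.9 nCPM in replicates 1, 2 and 3, only abundant genes could pass. Between replicates 1 and 2 alone the same limits gave 0 genes higher and 2 lower in replicate 2, while replicate 3 against replicate 2 gave 42 higher and 68 lower, and against replicate 1 gave 16 and 51. Replicates 1 and 2 together have fewer reads than replicate 3, which limits the first of these counts.

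The genes higher in replicate 3 included transporters of hexoses, ammonium and sulfate, enzymes of nitrogen and sulfur assimilation, and the plasma membrane proton pump. The 10 with the largest difference are described here. HXT6 (chromosome 4, 1139001 to 1140713, minus strand) and HXT7, high-affinity hexose transporters with nearly the same sequence, had 604, 524 and 5374 and 121, 314 and 1522 nCPM. HXT6 was 8.90 times (interval 3.78 to 27.6) as high in replicate 3 as in replicate 1 and 10.3 times (interval 5.51 to 21.6) as high as in replicate 2. MEP2, an ammonium permease (chromosome 14, 347315 to 348814, plus strand), had 0, 1 and 149 reads, or 0, 52.4 and 2362 nCPM. Replicate 3 was 6.52-fold above the 3-read floor of replicate 1. The lower limit of the 95% interval of the ratio of replicate 3 to replicate 1, which counts the error of both libraries, was 5.24. GDH1, the dehydrogenase that makes glutamate from ammonium, had 483, 524 and 2933. In all of these, replicates 1 and 2 were both low. MEP2 was outside the ranking because replicate 1 had no read.

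MET6, methionine synthase (chromosome 5, 340660 to 342963, minus strand), had 241, 52.4 and 2077 nCPM from 2, 1 and 131 reads. MET17, which fixes sulfide in the same pathway (chromosome 12, 692096 to 693430, plus strand), had 241, 262 and 1744, and the sulfate permease SUL1 had 362, 209.6 and 1585. PMA1, the proton pump of the plasma membrane (chromosome 7, 497791 to 500547, minus strand), had 966, 367 and 5223. Its level in replicate 3 was 5.40 times (interval 2.71 to 12.6) that of replicate 1 and 14.2 times (interval 6.83 to 35.7) that of replicate 2. The cell wall glucanosyltransferase GAS1 had 121, 367 and 1617, whereas CWP2 and SED1 had their lowest values in replicate 3. RPS22B, described above with its snoRNA, completes the group, and the remaining gene outside it was PDH1, a dehydratase of propionate breakdown, with 483, 367 and 1934. Reads in replicates 1 and 2 were few for each of these genes, at most 10 in a library, so the size of each difference is known only within wide intervals, for MET6 against replicate 1 a ratio of 8.60 times (interval 2.33 to 71.8).

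The genes lower in replicate 3 included hydrophilins, heat-shock proteins and a cell wall glycoprotein. SIP18, a hydrophilin made on drying (chromosome 13, 588432 to 588671, plus strand), had 1811, 1729 and 15.9 nCPM from 15, 33 and 1 reads, and replicate 2 held 109 times (interval 18.3 to 4437) as much as replicate 3. GRE1, a related hydrophilin (chromosome 16, 137365 to 137871, minus strand), had 8, 14 and 0 reads. The 3-read floor of replicate 3 was 15.4-fold below the nearer of the other libraries. The lower limits of the 95% intervals of the ratios to replicate 3 were 13.0 against replicate 1 and 11.0 against replicate 2. PIR3, a cell wall glycoprotein (chromosome 11, 150837 to 151814, plus strand), had 10, 42 and 0 reads. The same floor was 25.4-fold below the nearer of the other libraries, and the lower limits were 17.1 against replicate 1 and 36.0 against replicate 2. GRE1 and PIR3 were outside the ranking because replicate 3 had no read. For these, replicates 1 and 2 were both between 733 and 2200.4 nCPM and replicate 3 was at 0 or 1 read. HSP26 and HSP12 passed the same limits with many more reads, and replicate 2 held 8.07 times (interval 5.92 to 11.1) and 5.75 times (interval 4.62 to 7.19) as much as replicate 3.

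TKL2, a second transketolase (chromosome 2, 462158 to 464203, minus strand), had 966, 838 and 15.9 nCPM, and SOR2, a sorbitol dehydrogenase with a near-identical copy, had 966, 367 and 15.9. SSA3, an Hsp70 chaperone made under stress (chromosome 2, 84789 to 86738, minus strand), had 483, 576 and 31.7, whereas SSA1, a constitutive Hsp70 chosen after its values were seen, had 2656, 2200.4 and 4359 and was highest in replicate 3. The prolyl isomerase RRD1 had 966, 733 and 95.1, and the likely cell wall protein TOS6 604, 576 and 79.3. An unnamed feature on chromosome 8 (172069 to 173340) had 1449, 1519 and 95.1. After scaling by the median ratio of the ranked genes, SSA3 and TOS6 no longer passed, and 23 lower genes became 12, while all 11 higher genes still passed among 20.

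**Figure D4:**
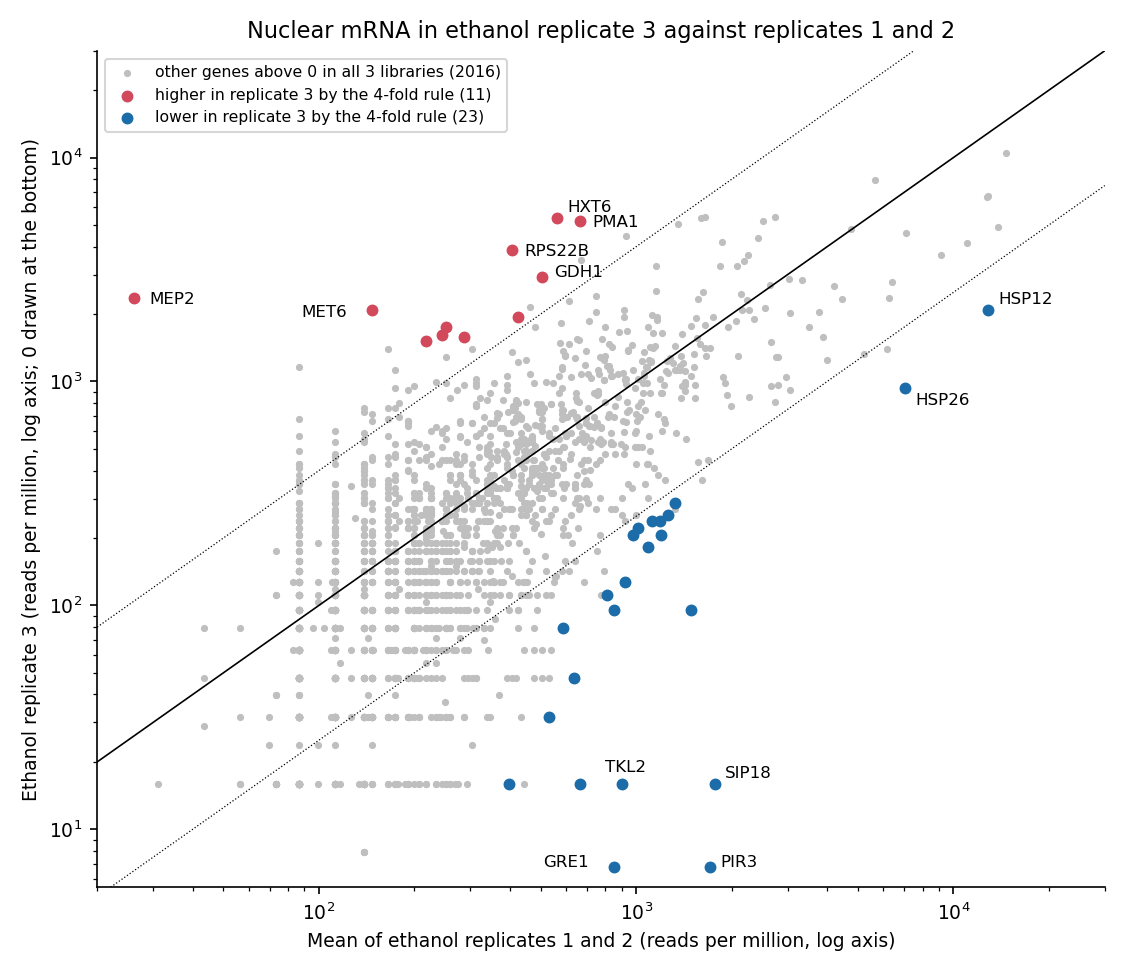
Level (nCPM, reads scaled to a total of 1000000 nuclear mRNA reads without ENO2) in ethanol replicate 3 against the mean of replicates 1 and 2 (both log axes, 0 drawn at the bottom), 1 point a gene. The solid line is equality and the dotted lines are 4-fold. The 11 red genes, among them HXT6, MEP2 and PMA1, are higher in replicate 3 and the 23 blue genes, among them HSP12, SIP18 and PIR3, are lower.

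Feature length also differed between libraries. The mean feature length, weighted by reads, was 1329, 1303 and 1467 bases in ethanol replicates 1, 2 and 3, against 1615, 1621 and 1665 in glucose. Features under 500 bases took 18.6%, 18.1% and 15.8% of the reads in ethanol and 8.84%, 8.83% and 8.15% in glucose. The median length was 1680 bases for the genes higher in replicate 3 and 1074 for the lower ones, against 1269 for all features with a read. None of the 11 higher and 9 of the 23 lower genes were under 1000 bases, against 35.9% of all features with a read. Among features from 1000 to under 2000 bases alone, 8 genes were higher and 10 lower. The part of RNA length or integrity in these differences was not tested.

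**Figure D5:**
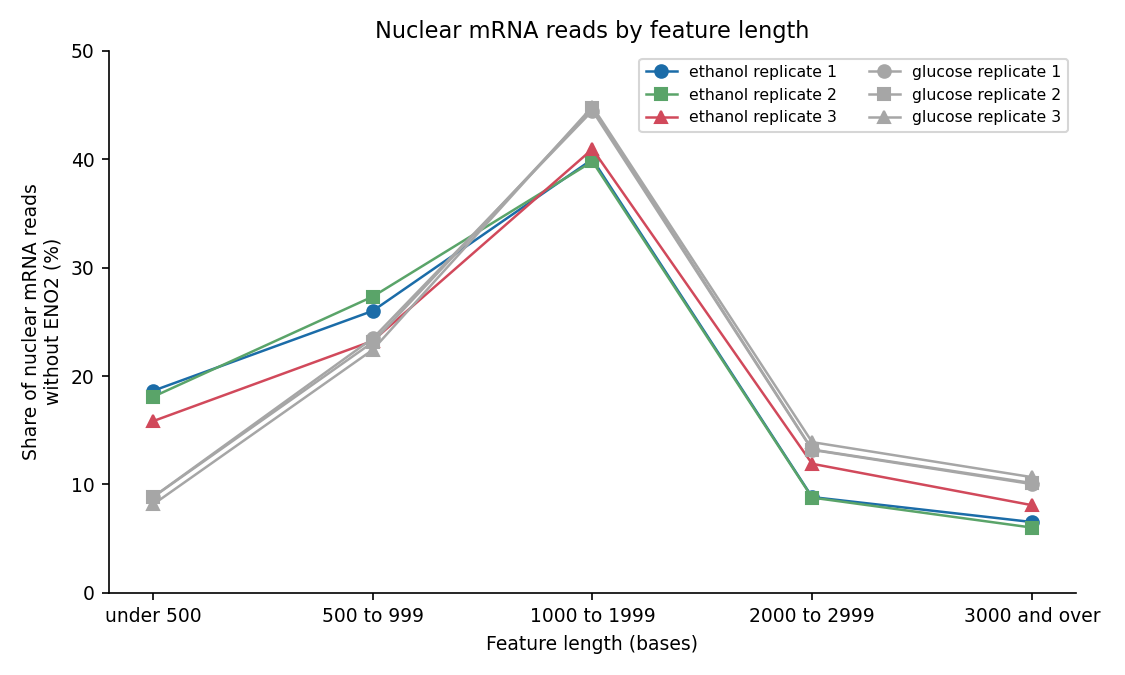
Share of nuclear mRNA reads without ENO2 (percent) by feature length in bases, 1 line for each library, with ethanol libraries coloured and glucose libraries grey. Ethanol replicates 1 and 2 have the largest share under 500 bases, 18.6% and 18.1%, replicate 3 has 15.8%, and the glucose libraries lie under 9%.

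Glucose values are set beside the ethanol ones without a test. They use the same ethanol libraries as the differences between replicates, so the sets of differences are not independent. Stress proteins took between 0.405% and 0.563% of the nuclear mRNA in the glucose libraries, the 7 mitochondrial lists between 3.45% and 3.61%, and the glyoxylate and gluconeogenesis list between 0.0698% and 0.0924%. Ribosomal proteins took between 13.8% and 15.3%, glycolysis between 8.52% and 9.18% and methionine synthesis between 2.61% and 2.84%. For single genes, glucose replicates 1, 2 and 3 had 8391, 10085 and 14216 nCPM of PMA1, 4911, 5668 and 5312 of MET6 and 2699, 2673 and 2329.7 of GDH1. They had 107, 92.3 and 126 of HXT6, 16.5, 20.5 and 0 of SIP18 and 82.5, 51.3 and 37.3 of HSP12. For PMA1 and MET6 replicate 3 lay between the other ethanol libraries and glucose, and for HXT6 it was far above both. For GDH1 replicate 3 was slightly above glucose, but its 95% interval, 2526 to 3386, held the values of glucose replicates 1 and 2.

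Across the 2047 ranked genes, Pearson's r of log2(nCPM + 100) was 0.786 between ethanol replicates 1 and 2, 0.695 between 1 and 3 and 0.722 between 2 and 3. Replicate 3 had r between 0.669 and 0.691 with the glucose libraries, replicate 1 between 0.449 and 0.476, and replicate 2 between 0.435 and 0.472. These values are across genes, which are not independent, and the libraries differ in depth.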

How the data were processed

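RNA from isolated mitochondria of 3 ethanol cultures was analysed, with 3 glucose cultures for orientation. Groups follow the labelled carbon source, and the series design calls them biological triplicates. The authors deposited 1 table of CPM (reads scaled to 1000000 assigned reads) per carbon source, with positions, strand, length and class of each feature on a CEN.PK113-7D assembly, per the file headers. The submitters' processing notes name STAR 2.5.4a, SAMtools, featureCounts and edgeR, with no role or settings. Whether counting used strand is not given in the sources used here. The feature class and names were used as deposited. The S288C R64 reference annotation served only for names of genes that hold a snoRNA, and no sequence was read from it because the tables use another assembly.

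The CPM worth of 1 read was found from the steps of the values. Between 93.2% and 94.9% of the nonzero ethanol values were whole reads within 0.01 read, so reads were rounded for intervals only and no count test was made. Assigned reads were 847610, 267509 and 671648 in ethanol replicates 1, 2 and 3. Shares were CPM divided by the CPM of all nuclear mRNA features without ENO2. No p-value was computed: the comparison of replicate 3 with replicates 1 and 2 is within a group and was made by fold and exact Clopper-Pearson intervals. The rule was run on simulated libraries with counting error only and planted changes larger than 4-fold. That run cannot show how the rule behaves on replicates that vary beyond counting error. Ratio intervals are exact conditional binomial at 95%.

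The 30 disjoint gene lists held 781 features, and 640 of 675 names written out were found. The rule named the 20 highest means, the 10 largest differences of replicate 3 in each direction and the leader of each list. Of the genes the rule names, 1 is not reported here. Where other genes are named, their values had been seen first, as the text says. The question, lists and members were chosen with earlier results of these data known. Alternatives were ENO2 in the total, shares per length, other fold limits, other scaling, a minimum of 3 reads and leaving out libraries. Reads of close paralogs (HXT6 and HXT7, TDH1 and TDH3, the TEF1 and histone copies, ADH1 and ADH2, SSA1 and SSA3, SOR2) could be split between them. Tools were Python 3.11.15, numpy 2.4.6, pandas 2.3.3, scipy 1.17.1 and matplotlib 3.10.9.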

Additional observations from a re-analysis of the deposited data

How the results depend on the processing

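Requiring 3 reads in each library left 668 of the 2047 ranked genes, and leaving out 1 replicate gave between 2105 and 3399. Genes higher in replicate 3 numbered 33 at 2-fold, 1 at 8-fold, 61 with ENO2 in the total and 20 with median ratio scaling, against 11, and without 1 of the other replicates between 16 and 42. Genes lower numbered 45, 7, 5 and 12 under the same settings, against 23, between 51 and 68 without 1 replicate, and 10 among features from 1000 to under 2000 bases. ENO2 was a smaller part of the nuclear mRNA in replicate 3 than in replicates 1 and 2. Keeping it lowers every other feature in each library, but least in replicate 3. By construction, replicate 3 thus rises relative to replicates 1 and 2. The cause of the other changes was not tested. All 11 higher genes were also called with ENO2 in the total and with median ratio scaling, and of the 23 lower genes 5 and 12 were.

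The shares of the 6 largest lists or groups of lists kept within 1 SD of their mean without ENO1 and without snoRNA hosts (these settings, and the limits on overlap and length, were chosen after seeing the data). Without 1 replicate, the mean was between 6.86% and 9.21% for the mitochondrial lists, 7.99% and 8.49% for ribosomal proteins, 4.71% and 6.14% for glycolysis, 3.99% and 5.36% for cell wall proteins, 3.46% and 4.77% for stress proteins, and 2.76% and 3.29% for translation factors. With ENO2 in the total, the mean shares were 1.81% for the mitochondrial lists, 1.66% for ribosomal proteins, 0.926% for glycolysis, 0.849% for cell wall proteins, 0.694% for stress proteins and 0.584% for translation factors. Per kb of length they were 11.3% for the mitochondrial lists, 9.36% for ribosomal proteins, 6.92% for cell wall proteins, 9.87% for stress proteins and 1.92% for translation factors, so that stress proteins came before ribosomal proteins. Among ranked genes only, ribosomal proteins had 9.65%. No paired analysis was possible because the results come from no test and lie within the ethanol group. Replicate 1, with 8284 nuclear mRNA reads, limits every statement on low genes.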
